A study of Caenorhabditis elegans with 6 samples.

Results

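The X chromosome of *Caenorhabditis elegans* carries 2731 protein-coding genes in Ensembl release 115 (WBcel235), and the 2670 of them listed in the 22G-RNA count files are described here. They were chosen by chromosome and biotype alone. The rule used no measured value, although earlier results of these data were known when it was set. The 2670 genes form 13.5% of the 19725 protein-coding genes and a smaller part of the 22336 loci counted. The other 61 X-linked genes of the annotation were not listed in the files.

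The counts come from small RNA libraries of whole gravid adults, 3 from *lotr-1(sam117)* animals (strain RFK1256) and 3 from wild-type animals (N2), all untreated and collected 65 hours after arrested L1 larvae were put on food. The *sam117* allele removes the whole *lotr-1* coding sequence. LOTR-1 is a germ granule protein with LOTUS and Tudor domains, and the study asked whether small RNA production depends on it. The labels do not say whether replicates came from separate cultures, so p-values measure only the spread between these libraries, which may be technical. *lotr-1* itself (WBGene00008385, chromosome I, 8487618 to 8490938, plus strand) had 40, 49 and 60 counts in the *lotr-1(sam117)* libraries, against 477, 522 and 563 in wild-type libraries, or -2.62 on the log2 scale (SE 0.165, DESeq2 adjusted p = 1.99e-21). The libraries did not overlap, but counts remained in the mutant, and where they lie within the gene was not analysed here.

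22G-RNAs are made by RNA-dependent RNA polymerases on a target transcript, start with G and are antisense to that transcript. Argonaute proteins carry them, some to silence the target and one, CSR-1, to license expression in the germline. In the hermaphrodite germline of *C. elegans* the X chromosome carries repressive histone marks and is largely silent through most stages, few of its genes act there, and many X-linked genes serve the soma, such as the intestine, neurons and muscle. The libraries are from whole animals, so fewer cells of a type and fewer 22G-RNAs per cell cannot be told apart.

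X-linked genes were poor in 22G-RNAs in every library. The share of members with at least 10 counts was 24.4%, 26.1% and 24.1% in the *lotr-1(sam117)* libraries, against 25.8%, 26.9% and 29.0% in the wild-type libraries. Among the 17043 autosomal protein-coding genes it was 40.5%, 41.6% and 40.7% in *lotr-1(sam117)*, against 43.9%, 44.6% and 45.6% in wild-type. The X value was below the autosomal value in 6 of 6 libraries, and so was the density of 22G-RNAs per kb of exon (exact two-sided sign-flip permutation test over libraries, p = 0.031 for each, the smallest value that 6 libraries allow). Per kb of exon, X-linked genes averaged 53.7 ± 3.88 counts as deposited in *lotr-1(sam117)* and 52.9 ± 4.80 in wild-type, and autosomal genes 90.9 ± 6.34 and 93.6 ± 9.12 (SD, n = 3 each). Divided by DESeq2 size factors, X-linked genes had 69.2 ± 0.706 counts per kb in *lotr-1(sam117)* and 40.02 ± 1.06 in wild-type, and autosomal genes 117.2 ± 1.01 and 70.8 ± 1.102, so a level between genotypes depends on the scaling, whereas the ratio of X to autosomes within a library does not. The X to autosome ratio of these densities was 0.590 ± 0.0018 in *lotr-1(sam117)* and 0.565 ± 0.0062 in wild-type. The 3 mutant ratios did not overlap the 3 wild-type ratios, and the exact permutation p of 0.1 is the smallest that 3 libraries against 3 can give. The autosomes were not alike in this. The mean ratio of X to II was 0.601 in *lotr-1(sam117)* and 0.524 in wild-type. For I the values were 0.411 and 0.404, for III 0.470 and 0.457, and for IV 0.627 and 0.604. Against V the mutant ratio was the lower, 1.02 and 1.04.

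Chromosome X was not alone in this. Chromosome V, which is rich in large gene families, had 52.6 ± 3.64 counts per kb of exon as deposited in *lotr-1(sam117)* and 51.1 ± 5.19 in wild-type. Within libraries, the density of X was 1.02 ± 0.0043 times that of V in *lotr-1(sam117)* and 1.04 ± 0.0162 times in wild-type, above V in 6 of 6 libraries. It was below each of the other 4 autosomes in 6 of 6 (exact two-sided sign-flip permutation p = 0.031 for each of the 5 autosomes, a comparison added after the data were seen). These are ratios of summed counts, and the 10 most targeted members held 37.4% of the X counts in *lotr-1(sam117)* and 32.7% in wild-type. Without the 5 members highest in wild-type, the log2 ratio of X to all autosomes per kb was -1.11, against -0.79 with them. The small margin over V may rest on few genes, and it was not recomputed without them. In wild-type 27.2% ± 1.66 of the X-linked genes had at least 10 counts, against 27.6% ± 0.619 of the genes on V, and X was below V in 4 libraries and above it in 2 (sign-flip permutation p = 0.25). The next chromosome up, IV, had 85.6 ± 5.65 in *lotr-1(sam117)* and 87.6 ± 8.70 in wild-type, and chromosome I was the densest, at 130.4 ± 9.34 and 131.1 ± 12.5. The order of the mean densities, from V and X at the low end through IV, II and III to I, was the same in both genotypes.

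**Figure D1:**
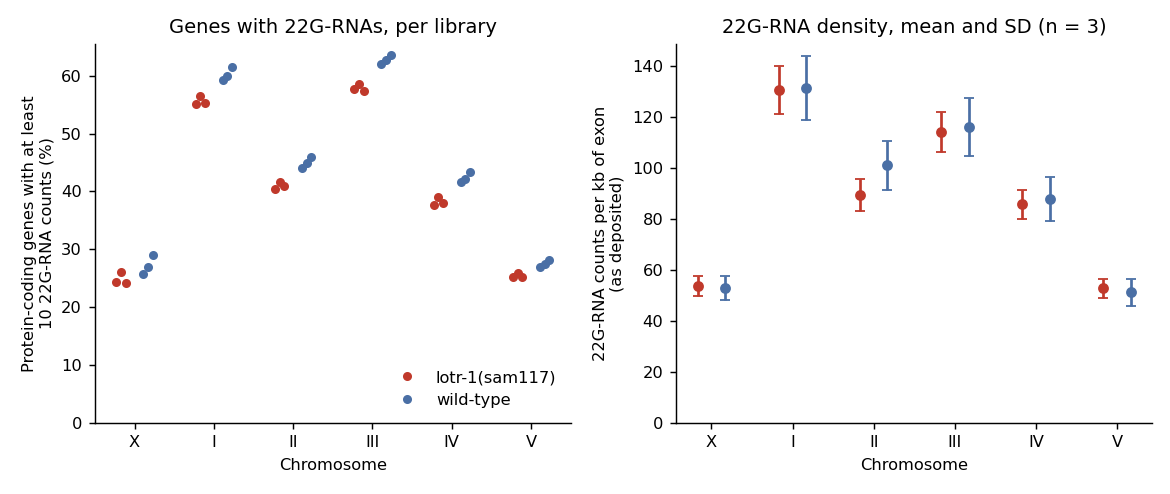
22G-RNA levels of protein-coding genes by chromosome, with *lotr-1(sam117)* in red on the left and wild-type in blue on the right of each pair. The left panel shows the percentage of genes with at least 10 counts in each of the 6 libraries, and the right panel the counts per kb of exon, as deposited, as mean and SD of 3 libraries; X and V lie together, at 53.7 and 52.6 counts per kb in the mutant, below the other 4 chromosomes.

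The share of all 22G-RNA counts that fell on X-linked genes was 6.73%, 6.73% and 6.68% in the *lotr-1(sam117)* libraries, against 6.78%, 6.66% and 6.68% in the wild-type libraries. The genotypes overlapped, and their means, 6.71% ± 0.0302 and 6.70% ± 0.0645, differed by 0.006 percentage points (exact two-sided permutation test, p = 0.8). As a share of protein-coding counts alone, where transposons and pseudogenes do not enter, X-linked genes took 9.32%, 9.34% and 9.29% in *lotr-1(sam117)*, against 9.06%, 8.89% and 8.94% in wild-type. These groups did not overlap, with a difference of 0.356 points (exact permutation p = 0.1, the smallest possible). Both values lie below the 13.5% of protein-coding genes that X holds. Of all counts, the share of chromosome II fell by 1.82 points in the mutant and that of V was 0.174 points higher (exact permutation p = 0.1 each). Of protein-coding counts, the share of II fell by 1.78 points, and a rise was not particular to X. The share of V rose by 0.744 points, that of I by 0.468 and that of III by 0.182 (exact permutation p = 0.1 each). That of IV was 0.0336 points higher (exact permutation p = 0.6).

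The X counts were concentrated in few genes. In *lotr-1(sam117)* 17 X-linked genes (0.637%) held 50% of the X counts, against 22 genes (0.824%) in wild-type. On the autosomes 136 genes (0.798%) did so in *lotr-1(sam117)* and 467 (2.74%) in wild-type, so the share of genes was close to that of X in the mutant and larger in wild-type. The 10 most targeted members held 37.4% of the X counts in the mutant and 32.7% in wild-type. At least 1000 normalized counts were reached by 55 members in *lotr-1(sam117)* and 35 in wild-type, and at least 10 by 723 and 621. At the low end, 560 members had 0 counts in every library, which at 3 counts bounds each of them at no more than 9.52e-05% of the counts of the shallowest library.

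Genotypes were compared gene by gene with DESeq2, testing for a change larger than 2-fold over all loci together. An adjusted p-value was given to 1155 members, and 955 others with a count were too low to receive one. *lotr-1(sam117)* had more 22G-RNAs at 100 members, against a background of 8.15% of the 11682 loci tested, and fewer at 73, against a background of 8.14%. As shares of the members tested this is 8.66% and 6.32%, close to the background in the first direction and below it in the second. For autosomal protein-coding genes the shares were 7.07% and 8.50% of 9569 tested. Calls with more 22G-RNAs made up 57.8% of the calls on X and 59.6% on V, against 40.7% to 44.0% on the other 4 chromosomes. The balance rests on the scaling. Taking each library's total as its size, which moves the median log2 fold change of 8789 loci that averaged 10 counts or more to -0.84 from -0.05, gave 44 members with more 22G-RNAs and 134 with fewer. The median of the 698 members at that level was 0.53 with size factors and -0.26 with total counts, above the median of all loci in both cases. The 44 were among the 100, and the 73 were all among the 134. With total-count scaling falls outnumbered rises on every autosome too, such as 81 rises and 334 falls on V and 88 and 482 on I. Of genes with 10 to 100 mean wild-type normalized counts it called 3.07% of members higher and 12.3% lower, against 3.41% and 20.3% of autosomal genes. From 1000 counts these were 5.71% and 31.4%, against 11.5% and 25.2%. The class from 100 to 1000 is given below. When DESeq2 tested for any change and the 2-fold limit was put on the estimate, it called 294 members with more 22G-RNAs (21.2% of 1385 tested) and 131 with fewer (9.46%), against 14.5% of all loci in each direction and 12.2% and 15.5% of autosomal protein-coding genes.

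The called members carried much of the X signal. The 100 with more 22G-RNAs held 47.6% of X counts in *lotr-1(sam117)* and 19.6% in wild-type, and the 73 with fewer held 2.25% and 21.1%. Since the calls were made on the same counts, these shares describe their size and test nothing. The median size of the log2 fold change was 2.31 among the rises and 2.42 among the falls, and 63 and 51 of them exceeded 2. In every called member the libraries of the genotypes, scaled by size factors, did not overlap. Passing the test on these same counts all but requires this, so it adds no support. The share of all loci without overlap is not given here. Beside the threshold, *lron-1* was just inside (adjusted p = 0.0989) and K09F5.6 just outside (adjusted p = 0.103, both from DESeq2).

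**Figure D2:**
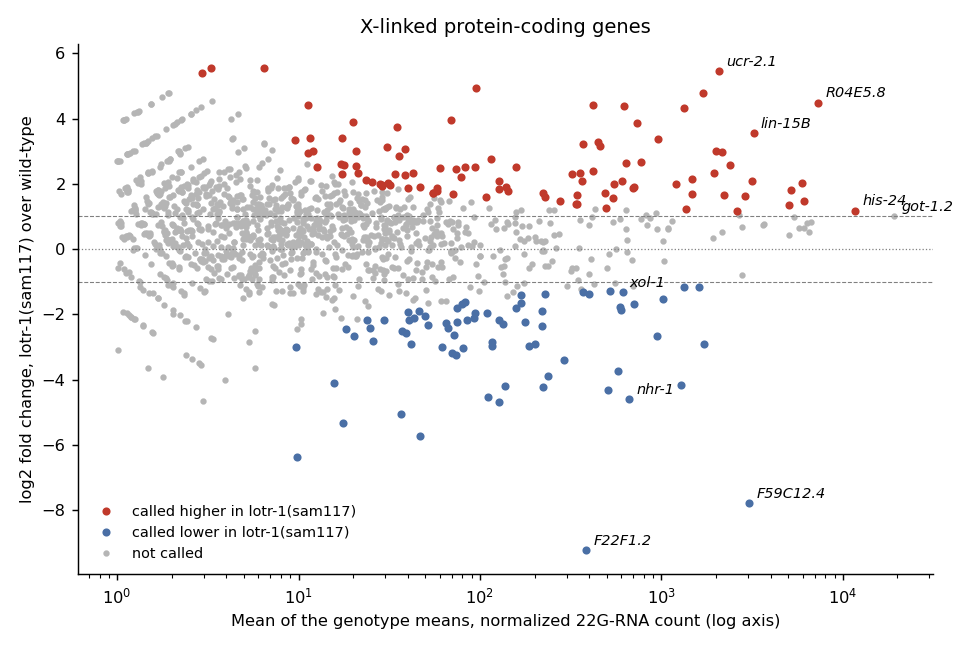
Change at X-linked genes against their 22G-RNA level. Each point is a member with a mean of at least 1 normalized count, placed by the mean of the genotype means (log axis) and by its log2 fold change, *lotr-1(sam117)* over wild-type; red points were called higher, blue points lower, grey points were not called, and dashed lines mark 2-fold. The called points reach from -9.22 (F22F1.2) to 5.55, and got-1.2, the most targeted member, sits on the 2-fold line.

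Against autosomal genes of similar wild-type count, X-linked genes lay higher in the mutant. Between 10 and 100 wild-type normalized counts, the median log2 fold change was 0.33 over 423 members and -0.13 over 3632 autosomal genes, and 61.9% of the members and 42.9% of the autosomal genes had a positive value. Between 100 and 1000 counts the medians were -0.07 for 163 members and -0.23 for 3343 autosomal genes, and from 1000 counts they were 0.65 for 35 members and 0.26 for 262 autosomal genes. In the lowest class, from 1 to 10 counts, they were 0.59 for 678 members and 0.34 for 3373 autosomal genes. In all 4 classes the X median was above that of each single autosome. With classes of the mean over both genotypes, X was below all autosomes together by 0.28 from 1000 counts, and it stayed above them in the other 3 classes.

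Weighted over the classes from 10 counts, the median of X-linked genes exceeded that of autosomal genes by 0.38 on the log2 scale. This difference does not depend on a common scale, and it was 0.38 with total-count scaling too. The same comparison made library by library, as each library's deviation from the wild-type mean on the log2(count + 1) scale, gave X minus autosome values of 0.52, 0.47 and 0.43 in the *lotr-1(sam117)* libraries for the class from 10 to 100, against -0.01, -0.01 and 0.01 in the wild-type libraries. The differences between the genotypes were 0.27, 0.47, 0.13 and 0.39 from the lowest class to the highest. The wild-type values lie near 0 because the deviations are taken from the wild-type mean, so these values are a description and the exact permutation p of 0.1 is no test of the difference.

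Gene length moved with this result. X-linked genes of the class from 10 to 100 had a median of 1898 bp of exon, against 1190.5 bp on the autosomes, and a median wild-type count of 23.6 against 42.4. With classes set by wild-type count per kb of exon, the weighted difference was 0.14, and from 100 to 1000 counts per kb it turned to -0.14. With classes of count crossed with 3 groups of exon length, an alternative chosen after the data were seen, it was 0.25, and with 10 equal groups of wild-type count it was 0.39. Among tested members the median log2 fold change was 0.31 for those up to 1285 bp, 0.64 for the middle group of 3 equal groups and 0.81 for those from 2279 bp, whereas autosomal genes cut at the same lengths had medians of 0.01, -0.02 and -0.05. Tested members include genes that passed only because one genotype was high, so these medians are a description. The part of exon length in the difference was not tested beyond these values.

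**Figure D3:**
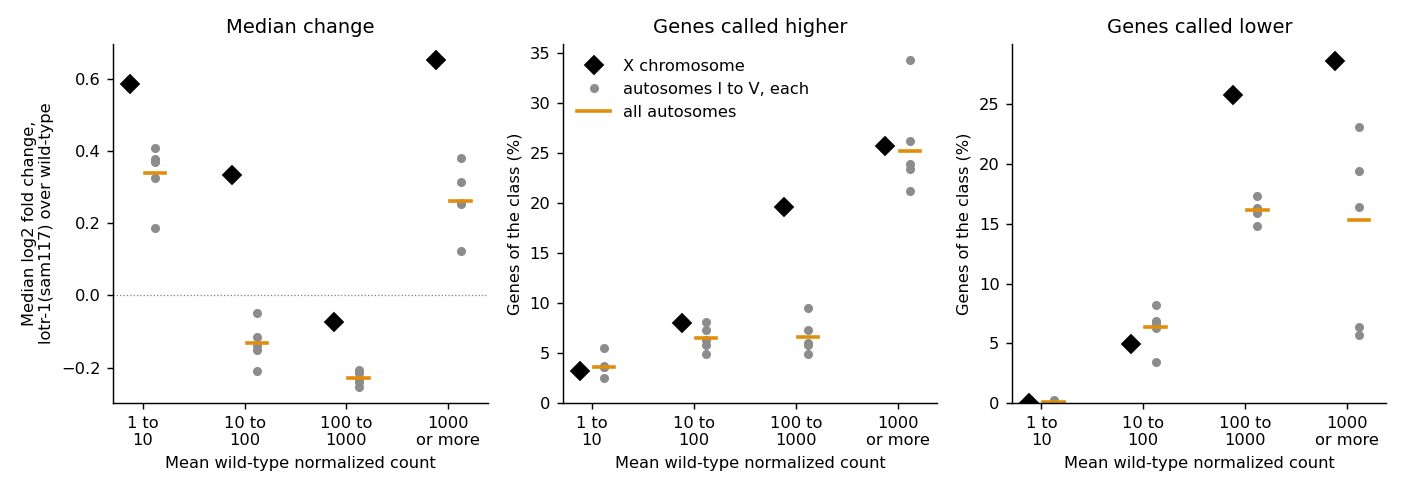
X-linked and autosomal protein-coding genes by class of mean wild-type normalized count. Black diamonds show X, grey points each autosome and orange lines all autosomes together, for the median log2 fold change of *lotr-1(sam117)* over wild-type and for the percentage of genes called higher or lower; from 100 to 1000 counts both percentages on X, 19.6% and 25.8%, lie above those of each autosome.

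The class from 100 to 1000 counts stood out by its spread. Of the 163 members, 32 were called with more 22G-RNAs (19.6%) and 42 with fewer (25.8%), against 6.61% and 16.1% of the autosomal genes of that class. Single autosomes ranged from 4.95% to 9.49% for more and from 14.8% to 17.3% for fewer. With total-count scaling the percentages were 11% and 40.5% on X, against 3.95% and 37.0% on the autosomes. From 1000 counts, 25.7% and 28.6% of the members were called with more and fewer, against 25.2% and 15.3% of autosomal genes, and from 10 to 100 counts 8.04% and 4.96%, against 6.50% and 6.36%. These percentages were not compared by a test, since genes of 1 library are not replicates.

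The share of a class's protein-coding counts that fell on X gave a mixed picture. From 100 to 1000 counts it was 7.27% ± 0.0311 in *lotr-1(sam117)* and 5.67% ± 0.0644 in wild-type, and from 1000 counts 11.6% ± 0.0519 and 12.7% ± 0.0671 (SD, n = 3 each). From 10 to 100 counts the values were 7.48% ± 0.0285 and 7.46% ± 0.0641, which overlapped (exact permutation p = 0.7), but with classes of the mean over both genotypes the difference in this class was 2.66 points. In the lowest class, from 1 to 10 counts, the share was 11.9% ± 0.0291 in the mutant and 18.5% ± 0.258 in wild-type, the opposite sign to the class's medians. There the summed normalized counts were 5231 in *lotr-1(sam117)* and 2691 in wild-type for X-linked genes, and 38852 and 11846 for autosomal genes. Of the autosomal sums, chromosome IV held 14896 in *lotr-1(sam117)* and 2497 in wild-type. With classes of the mean over both genotypes the difference from 1 to 10 was 2.35 points, against -6.65. Apart from the class from 10 to 100, the genotypes did not overlap (exact permutation p = 0.1 each, 0.133 after Benjamini-Hochberg adjustment over the 4). The classes were set by the wild-type counts, so these shares are a description and their p-values are no test of the difference.

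*ucr-2.1* (WBGene00012158, 12018429 to 12021206, plus strand), which encodes a core subunit of mitochondrial complex III, had 3073, 3363 and 3027 counts in *lotr-1(sam117)*, against 107, 117 and 144 in wild-type. Its log2 fold change was 5.46 (SE 0.0893), the largest of any called member with a mean of at least 100 counts. *ipla-2*, of the calcium-independent phospholipase A2 family, had 2446, 2745 and 2439 counts in the mutant, against 139, 157 and 173 in wild-type (log2 fold change 4.79, SE 0.0833). R04E5.8 had 10470, 11863 and 10249 counts in *lotr-1(sam117)*, against 821, 761 and 890 in wild-type (4.49, SE 0.0528). *sec-16A.2*, a homolog of the Sec16 protein of endoplasmic reticulum exit sites, averaged 2543 ± 93.4 normalized counts in *lotr-1(sam117)* and 126.5 ± 5.54 in wild-type (4.33, SE 0.0857). For these 4 genes DESeq2 gave adjusted p-values too small to be represented as numbers.

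Among the chromatin regulators listed, *lin-15B* (WBGene00023497, 15726123 to 15732025, plus strand) and *lin-15A* rose. LIN-15B is a THAP domain protein that keeps germline genes off in the soma, and LIN-15A belongs to another class of the same synthetic multivulva network. *lin-15B* had 4369, 4957 and 4484 counts in *lotr-1(sam117)*, against 626, 669 and 701 in wild-type (log2 fold change 3.56, SE 0.0531). *lin-15A* had 1259, 1483 and 1326 counts in *lotr-1(sam117)*, against 236, 205 and 220 in wild-type (3.38, SE 0.0899, DESeq2 adjusted p = 2.72e-153). The genes lie in 1 operon and overlap by 58 bp on the same strand, so a small part of their counts is uncertain. *acl-1*, an acyltransferase gene, and F53H4.6 overlap by 51 bp on opposite strands, and each rose, with log2 fold changes of 4.43 and 4.38. *acl-1* had 578, 676 and 610 counts in *lotr-1(sam117)*, against 46, 33 and 69 in wild-type, and F53H4.6 had 897, 958 and 911 against 63, 75 and 89. Counting used strand, so these antisense neighbours do not share reads. F08G12.3 (3.88) and the nuclear hormone receptor gene *nhr-28* (3.27) complete the 10 largest, and scaling by totals kept the call of all 10, where their log2 fold changes ran from 2.48 to 4.67.

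The deepest falls left some highly targeted genes with almost no 22G-RNAs. F22F1.2 (WBGene00017714, 8149559 to 8150721, minus strand) kept 2, 0 and 1 counts in *lotr-1(sam117)*, against 1002, 1013 and 1026 in wild-type. With 3 counts per library as the floor, that is at least 199-fold lower in the mutant (DESeq2 adjusted p = 2.15e-21). F59C12.4 (WBGene00045272, 16602473 to 16602622, minus strand) is a gene of a single short span that in wild-type ranked below *got-1.2* and *his-24* among all X-linked genes. It had 16, 28 and 20 counts in *lotr-1(sam117)*, against 7779, 7589 and 8513 in wild-type, or -7.78 on the log2 scale (SE 0.189, DESeq2 adjusted p = 1.7e-279). F13C5.2 had 97, 123 and 95 counts in *lotr-1(sam117)*, against 2936, 3154 and 3510 in wild-type (-4.16, SE 0.0985, DESeq2 adjusted p = 3.35e-224). For each of these genes the highest mutant library was far below the lowest wild-type library, but the rule that picked them required no overlap.

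Of the other falls, *dgk-2*, which encodes a diacylglycerol kinase, had 9, 6 and 7 counts in *lotr-1(sam117)*, against 294, 329 and 350 in wild-type (log2 fold change -4.70, SE 0.341). *sms-2*, a sphingomyelin synthase gene, had 7, 7 and 7 counts in the mutant, against 286, 277 and 266 in wild-type (-4.54, SE 0.358). *npr-11*, a neuropeptide receptor gene, had 21, 26 and 23 counts in *lotr-1(sam117)*, against 538, 577 and 646 in wild-type (-3.88, SE 0.204). D1025.1 and F59D12.2 fell by 4.24 and 4.19 on the log2 scale. Scaling by totals kept the call of all 10 of the deepest falls, at log2 fold changes from -10.01 to -4.67.

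**Figure D4:**
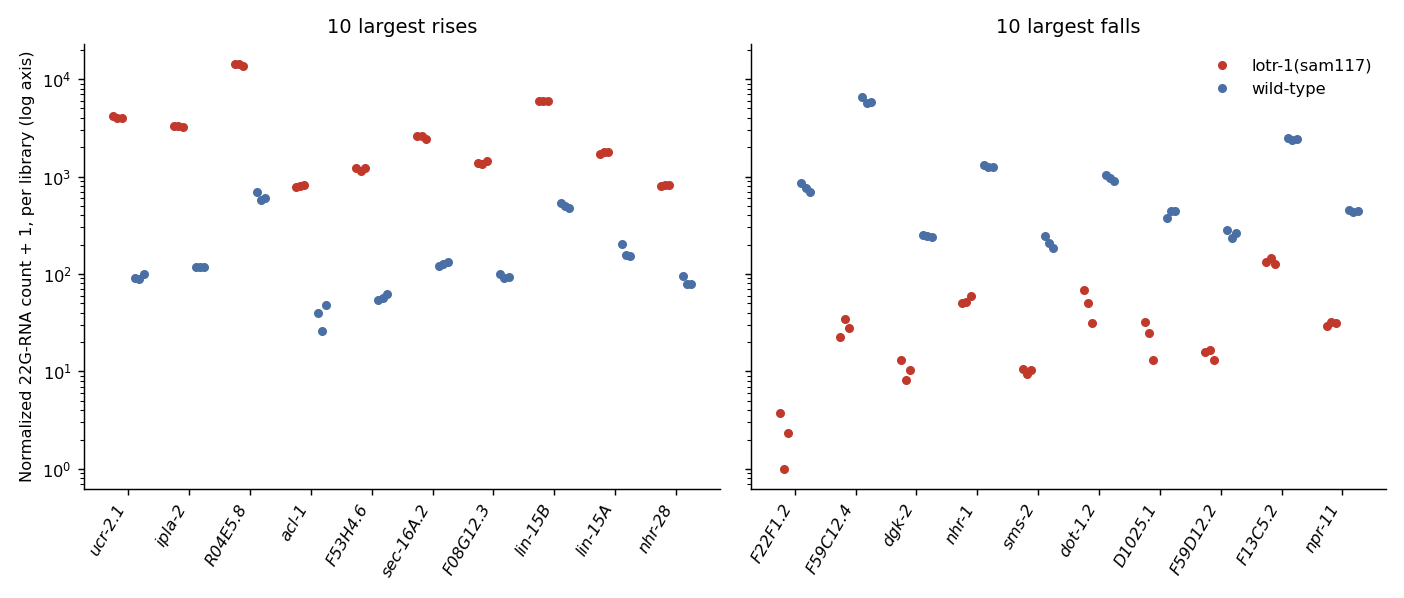
Normalized 22G-RNA counts (plus 1, log axis) of the 10 largest rises and the 10 largest falls among X-linked genes, with *lotr-1(sam117)* in red on the left and wild-type in blue on the right of each gene, 1 point for each library. Genes run from the largest change on the left. The rule that picked the 20 required that the libraries of the genotypes do not overlap, so the gap shown tests nothing.

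At the lowest counts, 6 called members had at most 3 counts in every *lotr-1(sam117)* library and 3 had at most 3 counts in every wild-type library. Of the falls, T03G6.3 had 3, 1 and 1 counts in *lotr-1(sam117)*, against 92, 90 and 101 in wild-type, at least 18.5-fold lower. Of the rises, C39B10.7 had 3, 17 and 10 counts in *lotr-1(sam117)*, against 1, 0 and 0 in wild-type, at least 5.49-fold higher. These bounds use size factors.

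The genes most targeted in wild-type were picked by level and not by change, so they cannot be set against the rises and falls above. Of the 10 highest, F59C12.4 fell and *his-24*, which encodes a linker histone H1, rose, while 8 did not pass the test. Of all loci tested 8.14% fell and 8.15% rose. Of the 35 members from 1000 wild-type counts, 28.6% fell and 25.7% rose. *got-1.2* (WBGene00020146, 16791347 to 16793126, minus strand), a glutamate oxaloacetate transaminase gene and the most targeted of all, had 19351, 21163 and 18967 counts in *lotr-1(sam117)*, against 15738, 16542 and 17841 in wild-type. Scaled by size factors these are 25571 ± 595 and 12667 ± 637 (SD, n = 3 each), or 1.01 on the log2 scale (SE 0.0392, DESeq2 adjusted p = 1 against 2-fold), and edgeR's test called it higher. *his-24* averaged 16147 ± 349 normalized counts in *lotr-1(sam117)* and 7124 ± 425 in wild-type (1.18, SE 0.0426, DESeq2 adjusted p = 0.000204), a call that total-count scaling did not make. The other 7 were F02C12.3, M02F4.1, T22B2.2, C44C10.5, the polyketide synthase gene *pks-1*, F39F10.2 and *dot-1.5*, with log2 fold changes between 0.44 and 1.00. Their mutant libraries were all above their wild-type libraries when scaled by size factors. The share of all loci of which this is true is not given here, so it marks nothing particular to these genes. C44C10.5 overlaps C44C10.10 by 249 bp on the same strand, so its value is uncertain there. With total-count scaling 4 of the 7 turned below 0, namely F02C12.3 (-0.26), T22B2.2 (-0.14), *pks-1* (-0.15) and F39F10.2 (-0.34).

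Some X-linked genes encode histone-modifying enzymes or their relatives. The demethylase-related genes *jmjd-3.2* and *jmjd-3.3*, named after their values were seen, fell. *jmjd-3.2* had 50, 78 and 61 counts in *lotr-1(sam117)*, against 1314, 1417 and 1540 in wild-type (log2 fold change -3.73), and *jmjd-3.3* had 28, 41 and 28 against 408, 424 and 473 (-2.99). *jmjd-3.1*, which encodes a demethylase of histone H3 lysine 27, had 1514, 1772 and 1433 counts in *lotr-1(sam117)*, against 4352, 4688 and 4896 in wild-type. The change of -0.80 on the log2 scale (SE 0.0545, DESeq2 adjusted p = 1) passed only with total-count scaling (-1.59). *utx-1*, of the same enzyme family, had 28, 33 and 31 counts in the mutant, against 23, 32 and 32 in wild-type (0.85, SE 0.346), and did not pass. Of the chromatin list as a whole, 2 of 4 genes rose (*lin-15B* and *lin-15A*), or 50%, against 8.15% of all loci tested, and none fell. These 2 genes lie in 1 operon. The lists were chosen with earlier results of these data known, so this share and those of the lists below are descriptions and test nothing. Among the relatives of the DOT1 histone methyltransferase, *dot-1.2* fell by 4.31 on the log2 scale, with 50, 41 and 23 counts in *lotr-1(sam117)*, against 1212, 1297 and 1324 in wild-type, whereas *dot-1.5* had a value of 1.00 and was not called by DESeq2 against 2-fold but was by edgeR. *hpl-1*, a heterochromatin protein 1 gene also named after the fact, fell, with 15, 55 and 40 counts in *lotr-1(sam117)*, against 231, 291 and 308 in wild-type (-2.16). Of further called members, *set-8* fell (-2.23) and *wdr-5.2* rose (2.29), a rise that was not called with total-count scaling. The genes named after the fact are examples and no full list, so their direction stands for no group.

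Of the genes that count X chromosomes or equalise their expression, 6 of 7 listed are X-linked protein-coding genes, and 1 was called. *xol-1*, the switch that directs male development and is kept low in hermaphrodites, had 265, 302 and 247 counts in *lotr-1(sam117)*, against 1042, 1150 and 1272 in wild-type. The change of -1.32 on the log2 scale (SE 0.0878, DESeq2 adjusted p = 0.00216) was also called with total-count scaling (-2.11). *ceh-39*, an X signal element with a homeodomain, had 200, 201 and 200 counts in *lotr-1(sam117)*, against 466, 495 and 566 in wild-type (-0.57, SE 0.114), and was called only with total-count scaling (-1.36). The dosage compensation genes *sdc-1* and *sdc-2* had log2 fold changes of 0.03 and 0.19 with size factors and -0.76 and -0.60 with total-count scaling. The X signal elements *fox-1* and *sex-1* had at most 19 counts in any library and were not called.

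None of the 5 small RNA factors was called against 2-fold by DESeq2 (0 with an unadjusted p under 0.05) or by edgeR, and *sid-3* was called when DESeq2 tested against no change. *alg-1*, an Argonaute of the miRNA pathway, had 47, 40 and 60 counts in *lotr-1(sam117)*, against 75, 72 and 80 in wild-type (log2 fold change 0.15, SE 0.261). *ain-1*, its GW182 partner, had a value of -0.54, and *nrde-3*, a nuclear Argonaute, 0.24. The systemic RNAi genes *sid-3* and *sid-5* had 1.09 and -0.89, and *sid-5* had no more than 9 counts in a library. The direction of *alg-1* and *nrde-3* was negative with total-count scaling (-0.64 and -0.55).

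The 5 vitellogenin genes, whose yolk proteins are made in the intestine of adults in great amounts, carried few 22G-RNAs, between 16 and 59 counts in any library. Their log2 fold changes lay between 0.69 (*vit-1*) and 1.28 (*vit-4*), and none was called by DESeq2 against 2-fold (0 with an unadjusted p under 0.05). *vit-4* was called by edgeR and by DESeq2 against no change, where all 5 had an adjusted p between 0.00154 (*vit-4*) and 0.0530 (*vit-1*). *vit-3*, *vit-4* and *vit-5* are near-identical copies between which reads may have been exchanged, so their separate values are uncertain. *vit-1* was at -0.10 with total-count scaling.

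Families of somatic genes gave few values to compare. Of 34 neuropeptide genes 12 had any count and 2 were tested, and of 27 collagen genes 15 had a count and 1 was tested. None of either was called by edgeR or by DESeq2, against 2-fold or no change. Of the 10 *twk* potassium channel genes 4 were tested, DESeq2 called none against 2-fold and 2 against no change, and edgeR called 1. Both calls against no change were rises, and that test called 14.5% of all loci higher. The share of all loci that edgeR called is not given here. In these 3 families 0 genes had an unadjusted DESeq2 p under 0.05 against 2-fold. Of 24 ligand-gated channel genes 5 were tested and *lgc-53* rose (20% of those tested, against 8.15% of all loci tested). It had 16, 26 and 27 counts in *lotr-1(sam117)*, against 0, 8 and 12 in wild-type (log2 fold change 2.59, SE 0.579, DESeq2 adjusted p = 0.0398). The call was lost with total-count scaling. Of 16 *unc* genes, named for uncoordinated movement, 7 were tested and 1 rose (14.3%, against 8.15% of all loci tested). This gene, *unc-10*, is a homolog of the synaptic protein RIM. It had 2692, 3039 and 2744 counts in *lotr-1(sam117)*, against 1951, 2097 and 2318 in wild-type (1.18, SE 0.0473, DESeq2 adjusted p = 0.00104), and was not called with total-count scaling.

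Nuclear hormone receptors, transcription factors of which many bind small lipophilic ligands, included calls in both directions. Of the 23 genes on X with an *nhr* symbol 14 were tested, *nhr-28* and *nhr-48* rose (14.3%, against 8.15% of all loci tested), and *nhr-1*, *nhr-3*, *nhr-17* and *nhr-40* fell (28.6%, against 8.14%). *nhr-48* had 2751, 2975 and 2595 counts in *lotr-1(sam117)*, against 560, 570 and 627 in wild-type (log2 fold change 3.01, SE 0.0622, DESeq2 adjusted p = 1.45e-227). *nhr-1* had 36, 42 and 44 counts in *lotr-1(sam117)*, against 1556, 1670 and 1849 in wild-type (-4.61, SE 0.148, DESeq2 adjusted p = 9.62e-129). The call of *nhr-3* (-1.37) was close to the threshold (DESeq2 adjusted p = 0.0663). The summed normalized counts of the 23 were 4647 in *lotr-1(sam117)* and 2346 in wild-type, but 1070 and 1902 without *nhr-48*. Of 18 homeobox genes with a *ceh* symbol 7 were tested. Of these *ceh-40* rose (2.34) and *ceh-41* fell (-2.42), 14.3% in each direction, against 8.15% and 8.14% of all loci tested. The call of *ceh-40* was lost with total-count scaling and with the replicate number as a block. Of 13 *lin*, *let* and *egl* genes, named for defects of cell lineage, lethality and egg laying, 9 were tested. The 3 that rose were *lin-15B*, *lin-15A* and *lin-2* (33.3%, against 8.15% of all loci tested). Of these, *lin-15B* and *lin-15A* are also counted in the chromatin list. Since the lists were chosen with earlier results of these data known, the shares in this paragraph are descriptions. *lin-2*, a homolog of the scaffold protein CASK, had 56, 79 and 75 counts in *lotr-1(sam117)*, against 34, 36 and 34 in wild-type (1.78, SE 0.269, DESeq2 adjusted p = 0.0274), and its call was lost in the same 2 settings.

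Along the chromosome the called members were spread over all 18 windows of 1 Mb. The window from 14 to 15 Mb held the most, with 14 rises and 7 falls, but also the most tested members, 97, of which 21.6% were called. The windows from 12 to 13, 15 to 16 and 16 to 17 Mb had 20%, 20% and 20.3%. The window from 5 to 6 Mb held the fewest, with 1 and 2 among 70 (4.29%). Over the whole chromosome 8.66% of tested members rose and 6.32% fell, against 8.15% and 8.14% of all loci tested. The window from 16 to 17 Mb held 15.2% of the normalized X counts in *lotr-1(sam117)* and 19.1% in wild-type, and both *got-1.2* and F59C12.4 lie in it. The window from 8 to 9 Mb, with R04E5.8, *sec-16A.2* and F22F1.2, held 10.4% in the mutant and 7.44% in wild-type. No test was made of these counts.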

How the data were processed

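The authors deposited raw 22G-RNA counts per locus for 6 libraries, with no normalization. Per the labels and methods, RNA was treated with RppH, adapters were removed with cutadapt 2.4, and reads were aligned to WBcel235/ce11 with Bowtie 1.2.2, allowing 1 mismatch and 1 random best position. Reads of 22 bases starting with G and antisense to exons (Ensembl release 96) or transposons were counted with featureCounts 1.6.2. Random placement can exchange counts between near-identical genes. Whether PCR duplicates were collapsed is not given in the sources used here, so floors cover counting error only. Totals ran from 3150716 to 3829101 counts per library and hold only these 22G-RNAs. Replicates differed beyond counting noise (chi-square per degree of freedom 1.40 to 1.87).

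Chromosome, biotype and exon length came from Ensembl release 115. DESeq2 1.42.0 (R 4.3.3) was fitted over all 22336 loci with median-of-ratios size factors (0.737 to 0.839 in *lotr-1(sam117)*, 1.18 to 1.46 in wild-type), with a Wald test against an absolute log2 fold change of 1 and calls at a Benjamini-Hochberg adjusted p below 0.1. On simulated counts with 200 of 22336 loci changed 8-fold, 181 were recovered. Library-level values were compared by exact permutation tests in Python 3.11.15 with scipy 1.17.1. Normalized counts are counts divided by size factors, and classes had limits of 1, 10, 100 and 1000 mean wild-type counts. The fold floor was 3 counts per library.

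Named genes are the 10 members highest in wild-type, the 10 largest rises and falls among called members averaging 100 normalized counts or more, with no overlap, and members of the lists. In families, up to 4 called examples were given by value. Members and lists were chosen with earlier results of these data known. Alternatives were total-count scaling, TMM factors, autosomal size factors, edgeR 4.0.16, a test against no change, other filters and limits, a replicate block and leaving out libraries. Sequences were not used here.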

Additional observations from a re-analysis of the deposited data

How the results depend on the processing

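The number of members with more 22G-RNAs was 100, but 44 with total-count scaling, 164 with edgeR's test against 2-fold and 294 with a DESeq2 test against no change. The number with fewer was 73, but 134 with total-count scaling, which called more falls than rises on every autosome too, and 131 with the test against no change. The remaining settings gave 80 to 108 and 59 to 93. Leaving out 1 library gave 76 to 88 and 58 to 62. With the replicate number as a block the counts were 80 and 59. Same-numbered libraries did not deviate together (r from 0.0077 to 0.0088), so the numbers were not taken as pairs. The largest window count was 41 instead of 21 with the test against no change.

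The difference in X share of all counts turned to -0.0763 points without members that overlap another gene on the same strand, and ran from -0.0162 to 0.0430 points without 1 library. The difference in medians between X and autosomes turned to -0.14 from 100 to 1000 with classes of count per kb, and to -0.28 from 1000 with classes of the mean over both genotypes, although over all classes from 10 it then was 0.55. Without 1 library it was 0.35 to 0.40. The X share within the class from 1 to 10 changed by 2.35 points with classes over both genotypes, against -6.65. From 10 to 100 it was 2.66 points with classes over both genotypes, against 0.025, and ran from -0.0079 to 0.0562 points without 1 library. With 5 libraries the sign-flip test cannot go below 0.0625, and the X to autosome log2 ratios then were -0.65 to -0.63 per gene and -0.80 to -0.78 per kb, and the difference in genes with 10 counts -17.0 to -16.5 points.

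Of the named genes, 9 changed sign with total-count scaling: F02C12.3 (-0.26), F39F10.2 (-0.34), T22B2.2 (-0.14), *alg-1* (-0.64), *nrde-3* (-0.55), *pks-1* (-0.15), *sdc-1* (-0.76), *sdc-2* (-0.60) and *vit-1* (-0.10). Calls of *ceh-40*, *lgc-53*, *lin-2* and *nhr-3* were lost without 1 of the libraries, those of *ceh-40*, *lin-2* and *nhr-3* with the replicate block, and those of *ceh-40*, *lgc-53*, *lin-2*, *his-24* and *unc-10* with total-count scaling. *sdc-1* was at -0.0217 with TMM factors and between -0.0258 and 0.11 without 1 library, and *alg-1* between -0.0413 and 0.33. The causes were not tested.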
